A study of Trichoderma asperellum with 12 samples.

Results

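The genes described here are the thiol redox, superoxide dismutase and glutathione genes of Trichoderma asperellum TJ01, a filamentous soil fungus, and their transcript levels under increasing doses of the organophosphorus insecticide dichlorvos. A gene was taken as a member when its KEGG orthology annotation, read at the entry listed at the head, held 1 of 8 terms, namely thioredoxin, peroxiredoxin, glutaredoxin, superoxide dismutase, glutathione, glutamate--cysteine ligase, gamma-glutamyl or cytochrome c peroxidase, and did not name a catalase. This gave 94 of the 11647 genes in the expression table, of which 6624 had a KEGG entry. By function they comprised 8 genes of the thioredoxin system, 8 peroxiredoxins, 3 glutaredoxins, 6 genes of the superoxide dismutase family, 2 cytochrome c peroxidases, 1 glutathione peroxidase, 1 glutathione reductase, 4 genes of glutathione synthesis, 19 gamma-glutamyltranspeptidases, 27 glutathione S-transferases and 12 other glutathione-linked enzymes. The remaining 3 were genes of arginine synthesis, caught only by the word gamma-glutamyl.

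Strain TJ01 was cultured for 24 h in potato dextrose medium, and its mycelia were then held in Burk broth for 24 h at 28 °C and 180 rpm with no dichlorvos (the control, CK) or with 100, 500 or 1000 μg/mL dichlorvos (D1, D5 and D10). Total RNA of each of the 4 groups was sequenced in 3 libraries, 12 in all. All groups shared the strain, the medium and the time of harvest, so each comparison concerns dose at 24 h in this isolate. Levels are given as FPKM, a fragment count scaled to gene length and to the size of the library, so that levels can be compared between genes, and the values of a group are listed in the order of replicates 1, 2 and 3.

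Thioredoxins and glutaredoxins are small proteins that reduce disulfide bonds, the former recharged by thioredoxin reductase with NADPH and the latter by glutathione. Glutathione, a tripeptide with a free thiol, is made by glutamate--cysteine ligase and glutathione synthase, is oxidised by glutathione peroxidase and reduced again by glutathione reductase, and is joined to electrophilic compounds by glutathione S-transferases. Superoxide dismutases turn superoxide into hydrogen peroxide, which peroxiredoxins, cytochrome c peroxidase and catalases remove. In fungi these enzymes are known for their part in tolerance of oxidants and of toxic electrophiles.

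The KEGG entries of the members differed in strength. The bit score of the match was at least 200 in 50 members, between 100 and 200 in 9 and under 100 in 35, with a range of 52.0 to 1233. Among the gamma-glutamyltranspeptidases, 15 of 19 scored under 100. A member with such a low score may carry only a domain of the named enzyme, so scores are given beside the genes below whose match was weak.

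Control replicate 1 stood apart from the other libraries. Over the 8916 tested genes, its log2 values correlated at 0.896 and 0.897 with those of control replicates 2 and 3, which correlated at 0.984 with each other, and the libraries of a treated group correlated at 0.970 or more. Its median FPKM was 25.7 against 15.2 and 16.4 in the other controls. Among the 73 members tested, it lay above both other controls in 38 and below both in 22. Results against the control are therefore given with all 12 libraries. Where the call at 1000 μg/mL differs, and for some other genes, they are also given without control replicate 1. The comparison of 1000 with 100 μg/mL uses no control library in its difference.

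More of these genes were upregulated with each step in dose, and none was called lower with all 12 libraries. Genes were tested with limma on log2(FPKM + 1) with Benjamini-Hochberg adjustment over all tested genes. A call needed an adjusted p below 0.05 together with a log2 fold change beyond 1 in either direction. A mean of at least 1 FPKM over the libraries was required, which 73 members passed. The other 21 (8 S-transferases, 8 gamma-glutamyltranspeptidases, 4 peroxiredoxins and 1 arginine gene) stayed at or below 3.95 FPKM in every library. At 100 μg/mL 4 members were called higher and 0 lower, beside 4.60% and 0.538% of all tested genes. At 500 μg/mL 20 were called higher and 0 lower, beside 10.6% and 3.48%. At 1000 μg/mL 43 (58.9%) were called higher and 0 lower, beside 19.2% and 7.81%. Between 100 and 1000 μg/mL, 31 were called higher and 0 lower, beside 13.0% and 5.48%.

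The share called at 100 μg/mL was near that of all genes, and the shares at 500 and 1000 μg/mL were above it. The median log2 fold change of the tested members was 0.20, 0.52 and 1.19 at 100, 500 and 1000 μg/mL, where that of all tested genes was 0.02, 0.10 and 0.18. Without control replicate 1 the medians were 0.31, 0.55 and 1.2 for the members and 0.20, 0.28 and 0.37 for all genes. A gene that is nearly silent in the control passes the filter only through the doses at which it is high, and 8 tested members had a control mean under 1 FPKM, all 8 of them called higher at 1000 μg/mL. Of the 65 with a control mean of at least 1 FPKM, 35 were called higher at 1000 μg/mL, against 16.6% of all such genes. With no filter, 41 of the 94 members (43.6%) were called higher at 1000 μg/mL, against 15.0% of all 11647 genes, and 0 lower, against 5.85%. The 3 comparisons with the control share its libraries, so their counts are not independent of each other. In bulk RNA, fewer cells of a kind and less RNA of a gene per cell cannot be told apart.

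The calls built up in a nested order with dose. Of the tested members, 4 were called higher at all 3 doses, 16 at 500 and 1000 μg/mL, 23 at 1000 μg/mL and at no lower dose, and 30 at none. The mean FPKM increased from 100 to 500 to 1000 μg/mL in 48 of the 73, and 31 were called higher at 1000 μg/mL over both the control and 100 μg/mL. These patterns were counted for the members alone, so no share of all genes stands beside them. Higher calls over all genes also grew with dose, at 4.60%, 10.6% and 19.2%, so the order is not shown to be particular to the members. Without control replicate 1, 6, 22 and 42 members were called higher at 100, 500 and 1000 μg/mL, beside 7.67%, 16.8% and 25.9% of all genes, and 38 of the calls at 1000 μg/mL were shared with those from all 12 libraries. Lower calls were then 0, 0 and 1, beside 1.05%, 4.31% and 7.68%. For 1000 against 100 μg/mL the fit without that library gave 32 higher and 1 lower, beside 14.6% and 6.46%. With libraries centred on their medians, 31 members were called higher at 1000 μg/mL and 0 lower, beside 14.3% and 12.5% of all genes, and the higher share of all calls went from 71.1% to 53.3%. Centring and leaving out control replicate 1 together gave 28 higher and 2 lower, beside 14.7% and 17.0%.

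NOISeq, the method named in the study, gives a probability that weighs a difference against the noise between replicates. Its thresholds in the study were applied here to all 12 libraries and again without control replicate 1. Over all genes, the run without control replicate 1 gave 489 and 871 higher at 500 and 1000 μg/mL. With all 12 libraries these counts were 174 and 384. At each dose and in both directions, the run with that control left out came close to the counts that the study reports. The run with every library fell well below them. The study does not state which libraries it compared. With all 12 libraries, 0, 7 and 15 members were higher at 100, 500 and 1000 μg/mL, beside 0.507%, 1.49% and 3.30% of all genes, and 0 were lower at each dose, beside 0.129%, 0.369% and 1.24%. Without control replicate 1 the thresholds gave 1, 11 and 24 higher, beside 1.75%, 4.20% and 7.48%, and 0 lower, beside 0.309%, 1.51% and 3.29%. For 1000 against 100 μg/mL it gave 20 higher and 0 lower in either set, beside 3.83% and 2.09%. Both runs gave fewer calls than limma in each comparison, and in both the count against the control was higher at each higher dose.

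**Figure D1:**
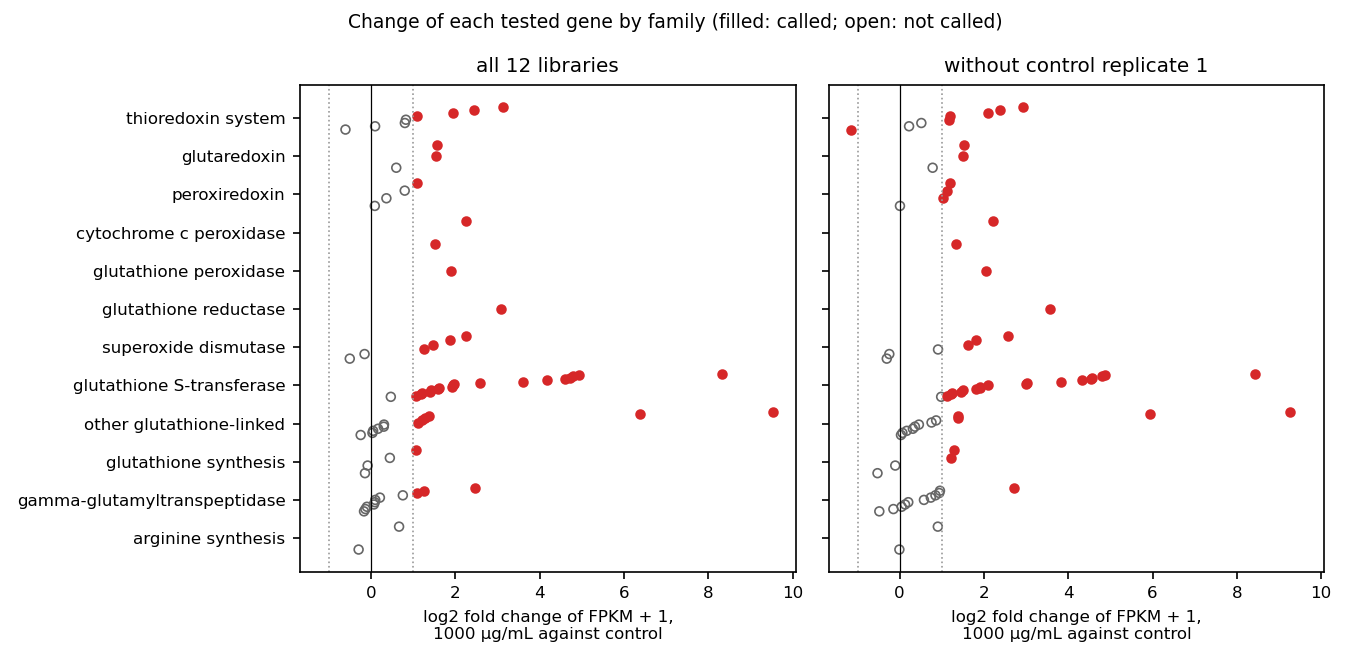
Log2 fold change of FPKM + 1 at 1000 μg/mL against the control for the 73 tested members, by family, with all 12 libraries (left) and without control replicate 1 (right). Filled points passed the test and open points did not, and dotted lines mark the fold threshold. The S-transferases were called higher in 18 of 19 tested genes in either panel, beside 19.2% (left) and 25.9% (right) of all tested genes. The arginine genes were called in 0 of 2.

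Of the thioredoxin system, 4 of 8 genes were called higher at 1000 μg/mL, beside 19.2% of all tested genes. All 4 were thioredoxins, and none of the 3 thioredoxin reductases was called higher. The most abundant thioredoxin, jgi_Trias1_152954, had FPKM of 254, 411 and 349 in the control, 301, 415 and 334 at 100 μg/mL, 1069.6, 1123 and 1126 at 500 μg/mL and 2946, 3068 and 2709 at 1000 μg/mL. Its levels at 100 μg/mL overlapped those of the control, while all libraries at 500 μg/mL lay above both groups and all at 1000 μg/mL above those. The mean was 338 ± 78.8 FPKM (SD, n = 3) in the control and 2908 ± 183 at 1000 μg/mL, a ratio of 8.6, and the log2 fold change was 3.13 ± 0.20 (SE, adjusted p = 1.7e-07). This gene made up between 42.4% and 55.9% of the summed FPKM of the system in the control libraries and between 78.2% and 79.8% at 1000 μg/mL. The summed level itself was 654 FPKM in the control, 659 at 100 μg/mL, 1550.0 at 500 μg/mL and 3678 at 1000 μg/mL.

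A second thioredoxin, jgi_Trias1_82309, followed the same order at a lower level, with 74.5, 76.4 and 88.8 FPKM in the control and 446, 498 and 368 at 1000 μg/mL (log2 fold change 2.43 ± 0.21, adjusted p = 1.8e-06). jgi_Trias1_165314, a weak thioredoxin match with a bit score of 65.5, rose by 1.93 ± 0.25 on the log2 scale, and jgi_Trias1_28369 by 1.09 ± 0.20. The latter call was lost when libraries were centred on the median (0.83), without control replicate 3 (0.96) and without D10 replicate 2 (0.95). The fifth, jgi_Trias1_42899, had a log2 fold change of 0.83 ± 0.29 that was under the fold threshold with 12 libraries and 1.16, called, without control replicate 1.

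Thioredoxin reductase is the flavoenzyme that recharges thioredoxin. jgi_Trias1_193440, with the highest score of the 3 (bit score 561), had FPKM of 186, 164 and 124 in the control, 102, 116 and 88.2 at 100 μg/mL, 106, 116 and 117 at 500 μg/mL and 170.3, 172 and 158 at 1000 μg/mL. The 100 μg/mL libraries were all below the control and the 1000 μg/mL libraries overlapped it, with a log2 fold change at 1000 μg/mL of 0.10 ± 0.18 (adjusted p = 0.72). Over 100 μg/mL the difference was 0.71 ± 0.18 (adjusted p = 0.013), under the fold threshold. jgi_Trias1_59020, a weak match (bit score 95.9), had a log2 fold change of 0.80 ± 0.25. The third, jgi_Trias1_302748 (bit score 92), had FPKM of 0.22, 2.71 and 2.87 in the control, 3.18, 2.9 and 2.32 at 100 μg/mL, 3.06, 1.98 and 1.65 at 500 μg/mL and 0.72, 1.11 and 0.37 at 1000 μg/mL. Its control replicate 1 was below every library at 1000 μg/mL, and the log2 fold change of -0.61 ± 0.40 (adjusted p = 0.27) with all libraries became -1.15 ± 0.28 (adjusted p = 0.004), called lower, without that library.

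**Figure D2:**
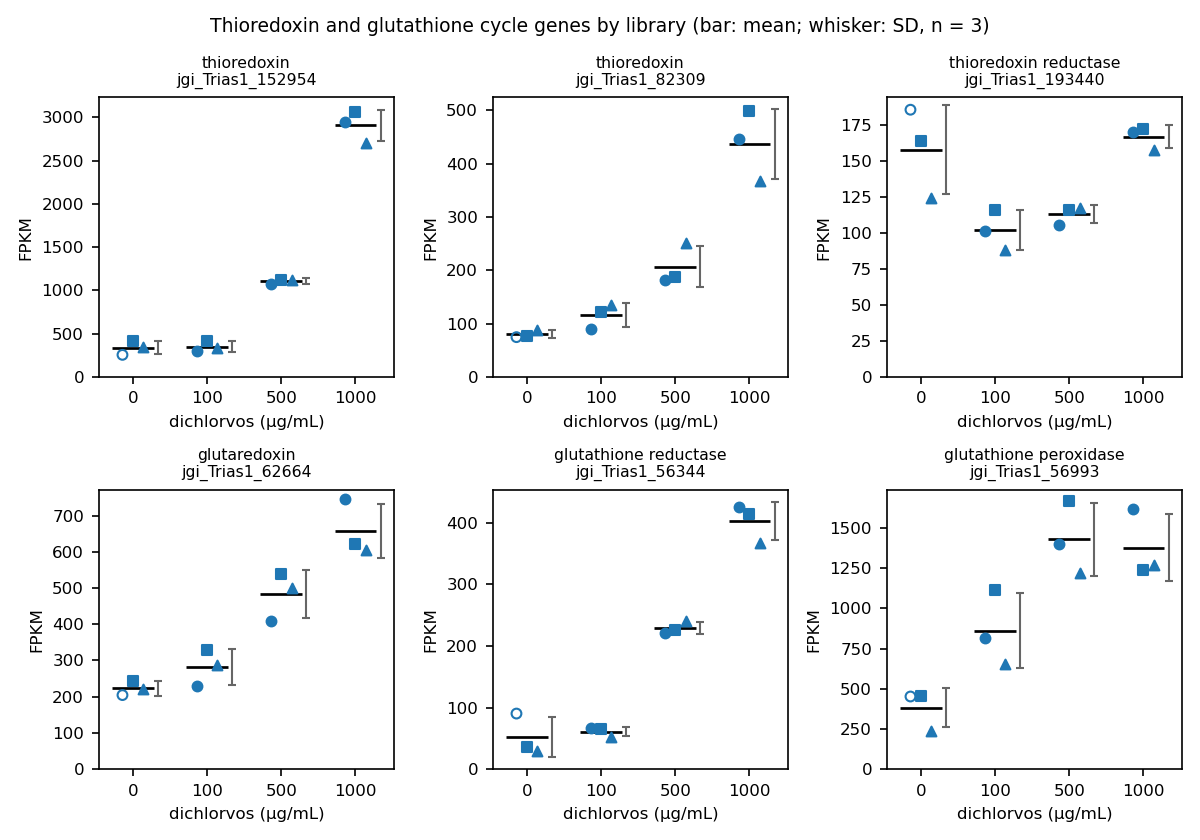
FPKM of 6 thioredoxin and glutathione cycle genes in each library against dichlorvos dose (μg/mL). Circles, squares and triangles are replicates 1, 2 and 3, the open circle is control replicate 1, bars are means and whiskers SD (n = 3). Thioredoxin jgi_Trias1_152954 and glutathione reductase rose between 100 and 1000 μg/mL, glutathione peroxidase levels at 500 and 1000 μg/mL overlapped, and thioredoxin reductase jgi_Trias1_193440 stayed within the control's range at 1000 μg/mL.

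All 3 glutaredoxins were tested and 2 were called higher at 1000 μg/mL, beside 19.2% of all tested genes. jgi_Trias1_62664, whose entry lacks the monothiol label, had FPKM of 204, 245 and 220.3 in the control, 231, 328 and 287 at 100 μg/mL, 410.5, 539.8 and 499.9 at 500 μg/mL and 745, 623 and 607 at 1000 μg/mL. Every library at 500 μg/mL lay above those at 100 μg/mL and every library at 1000 μg/mL above those at 500 μg/mL, and the log2 fold change was 1.11 ± 0.19 at 500 μg/mL (adjusted p = 0.0013) and 1.55 ± 0.19 at 1000 μg/mL (adjusted p = 4.0e-05). The other 2 are monothiol glutaredoxins, a class known in yeast for iron-sulfur cluster assembly. Of these, jgi_Trias1_23039 had FPKM of 55.8, 51.1 and 66.2 in the control, 58.9, 60.8 and 69 at 100 μg/mL, 73.2, 80.9 and 88.3 at 500 μg/mL and 171, 173 and 167 at 1000 μg/mL, with the 1000 μg/mL libraries within a narrow range above all others (log2 fold change 1.55 ± 0.16, adjusted p = 1.3e-05). jgi_Trias1_58571 had FPKM of 228, 149.9 and 161 in the control, 199, 201 and 177 at 100 μg/mL, 167, 195 and 214 at 500 μg/mL and 274, 258 and 272 at 1000 μg/mL, where the log2 fold change at 1000 μg/mL was 0.60 ± 0.18 (adjusted p = 0.022), under the fold threshold.

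Glutathione reductase, which regenerates reduced glutathione with NADPH, and glutathione peroxidase, which uses it to remove peroxides, each had 1 gene, and both were upregulated at 500 and 1000 μg/mL. The reductase jgi_Trias1_56344 had FPKM of 90.2, 36 and 30.1 in the control, 66.3, 65 and 51.9 at 100 μg/mL, 221, 226 and 240.1 at 500 μg/mL and 426, 414 and 368 at 1000 μg/mL. Control replicate 1 was above the other controls and above all libraries at 100 μg/mL, and the libraries at 500 and 1000 μg/mL lay above every control. The log2 fold change was 2.28 ± 0.31 at 500 μg/mL (adjusted p = 2.8e-04) and 3.09 ± 0.31 at 1000 μg/mL (adjusted p = 9.4e-06), and 3.57 ± 0.15 at 1000 μg/mL without control replicate 1.

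The peroxidase jgi_Trias1_56993 was among the 4 members called at the lowest dose. Its FPKM were 452, 454 and 240.0 in the control, 816, 1113 and 657 at 100 μg/mL, 1400.3, 1668 and 1219.7 at 500 μg/mL and 1618, 1240.1 and 1273 at 1000 μg/mL. All libraries at 100 μg/mL lay above the control, and those at 1000 μg/mL overlapped those at 500 μg/mL. The log2 fold changes at 100, 500 and 1000 μg/mL were 1.2 ± 0.28, 1.95 ± 0.28 and 1.90 ± 0.28, with adjusted p of 0.022, 3.9e-04 and 2.0e-04. Between 100 and 1000 μg/mL the difference was 0.70 ± 0.28 (adjusted p = 0.086), which did not pass.

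Of the other peroxide-removing enzymes, 1 of 4 tested peroxiredoxins and both cytochrome c peroxidases were called higher at 1000 μg/mL, beside 19.2% of all tested genes. For the peroxiredoxins, 1 of 4 was near that share. Peroxiredoxin jgi_Trias1_187102, of the atypical class, had FPKM of 68.8, 47.8 and 59.4 in the control, 90.9, 94.8 and 81.1 at 100 μg/mL, 97.8, 84.7 and 73.7 at 500 μg/mL and 114, 126 and 132 at 1000 μg/mL, and rose by 1.08 ± 0.18 on the log2 scale (adjusted p = 5.9e-04). The call was lost with centred libraries, where the value was 0.82, and without control replicate 2, where it was 0.94. The most abundant peroxiredoxin, jgi_Trias1_200163, which is annotated as the alkyl hydroperoxide reductase subunit, had FPKM of 102, 112 and 132 in the control, 112, 109 and 100.3 at 100 μg/mL, 127, 110.0 and 132 at 500 μg/mL and 110.2, 139 and 118 at 1000 μg/mL. All groups overlapped, and the log2 fold change at 1000 μg/mL was 0.09 ± 0.17 (adjusted p = 0.71). The remaining pair, jgi_Trias1_37528 and jgi_Trias1_132913, were not called with 12 libraries (log2 fold changes 0.80 and 0.36) and were called without control replicate 1 (1.12 and 1.04), a library in which both were above the other controls.

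Cytochrome c peroxidase, a mitochondrial haem enzyme in yeast, was represented by jgi_Trias1_51031 (bit score 619) with FPKM of 82.4, 138 and 104 in the control, 102, 116 and 86.3 at 100 μg/mL, 133, 135 and 165 at 500 μg/mL and 251, 343 and 322 at 1000 μg/mL. The levels at 100 μg/mL overlapped the control and those at 1000 μg/mL lay above every other library (log2 fold change 1.51 ± 0.22, adjusted p = 1.6e-04). The value was 0.85, no longer called, when libraries were centred and control replicate 1 was left out. jgi_Trias1_66006, with a bit score of only 53.1, had FPKM of 0, 0 and 0.1 in the control, 0.3, 0.52 and 0.31 at 100 μg/mL, 0.41, 0.31 and 0.95 at 500 μg/mL and 2.99, 4.37 and 4.43 at 1000 μg/mL, so its rise of 2.24 ± 0.25 on the log2 scale (adjusted p = 1.9e-05) ended at a low level.

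In the superoxide dismutase family, 3 dismutases and the copper chaperone were called higher at 1000 μg/mL, and the other 2 dismutases were not called. Of all tested genes 19.2% were called higher. The copper-zinc enzyme jgi_Trias1_73190, the most abundant member, had FPKM of 182, 210.4 and 202 in the control, 244, 297 and 251 at 100 μg/mL, 424, 369 and 422 at 500 μg/mL and 665, 859 and 664 at 1000 μg/mL. All libraries of each dose lay above those of the dose before, the control included. The mean went from 198 ± 14.8 FPKM (SD, n = 3) in the control to 729 ± 112 at 1000 μg/mL, a ratio of 3.68. The log2 fold change was 0.41 ± 0.17 at 100 μg/mL, which was not called (adjusted p = 0.21), 1.03 ± 0.17 at 500 μg/mL (adjusted p = 0.0011) and 1.87 ± 0.17 at 1000 μg/mL (adjusted p = 3.6e-06). Without control replicate 1 the value at 500 μg/mL was 0.97, no longer called.

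jgi_Trias1_60508, the copper chaperone that loads copper into this enzyme in yeast, had FPKM of 15.3, 11 and 11.1 in the control, 16.2, 13.4 and 13.4 at 100 μg/mL, 23.6, 17.7 and 15.6 at 500 μg/mL and 30.8, 42.4 and 36.2 at 1000 μg/mL and rose by 1.48 ± 0.23 on the log2 scale at 1000 μg/mL (adjusted p = 3.5e-04). The other copper-zinc entry, jgi_Trias1_135855 (bit score 103), was a low-level gene with FPKM of 2.73, 5.99 and 7.61 in the control, 3.47, 3.56 and 6.45 at 100 μg/mL, 2.6, 5.57 and 4.37 at 500 μg/mL and 14.9, 12.7 and 13.3 at 1000 μg/mL. Its libraries at 500 μg/mL overlapped the control and those at 1000 μg/mL lay above all others, but the call (1.26 ± 0.35, adjusted p = 0.014) was lost without control replicate 1 (0.91) and with centred libraries.

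The 3 iron-manganese dismutases, a family that includes the mitochondrial enzyme of yeast, held 1 called gene. jgi_Trias1_73687, the least abundant of them in the control, had FPKM of 12.3, 7.23 and 4.6 in the control, 6.51, 5.54 and 6.27 at 100 μg/mL, 23.9, 15.8 and 30.5 at 500 μg/mL and 39, 49.4 and 31.4 at 1000 μg/mL. Its libraries at 100 μg/mL overlapped the control, and all libraries at 500 and 1000 μg/mL were above all controls, with log2 fold changes of 1.48 ± 0.33 (adjusted p = 0.0078) and 2.25 ± 0.33 (adjusted p = 2.1e-04). jgi_Trias1_64045 had FPKM of 127, 75.5 and 72 in the control, 62.2, 65.6 and 61 at 100 μg/mL, 51.9, 53.4 and 54.6 at 500 μg/mL and 56.6, 69.7 and 60.5 at 1000 μg/mL. Here the treated libraries of every dose lay below every control, control replicate 1 was the highest library, and the log2 fold change of -0.72 ± 0.21 at 500 μg/mL (adjusted p = 0.03) and of -0.50 ± 0.21 at 1000 μg/mL (adjusted p = 0.081) stayed under the fold threshold. jgi_Trias1_61273 had 151, 207 and 211 FPKM in the control and 162, 190.1 and 155 at 1000 μg/mL, which overlapped (log2 fold change -0.15 ± 0.18, adjusted p = 0.54). The overlap came from control replicate 1, and without it the value was -0.31 ± 0.15 (adjusted p = 0.094). Of the 3, jgi_Trias1_73687 remained the least abundant at 1000 μg/mL, with 39.96 ± 9.03 FPKM (SD, n = 3) against 62.3 ± 6.71 for jgi_Trias1_64045, where the control means were 8.04 ± 3.91 and 91.5 ± 30.7.

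**Figure D3:**
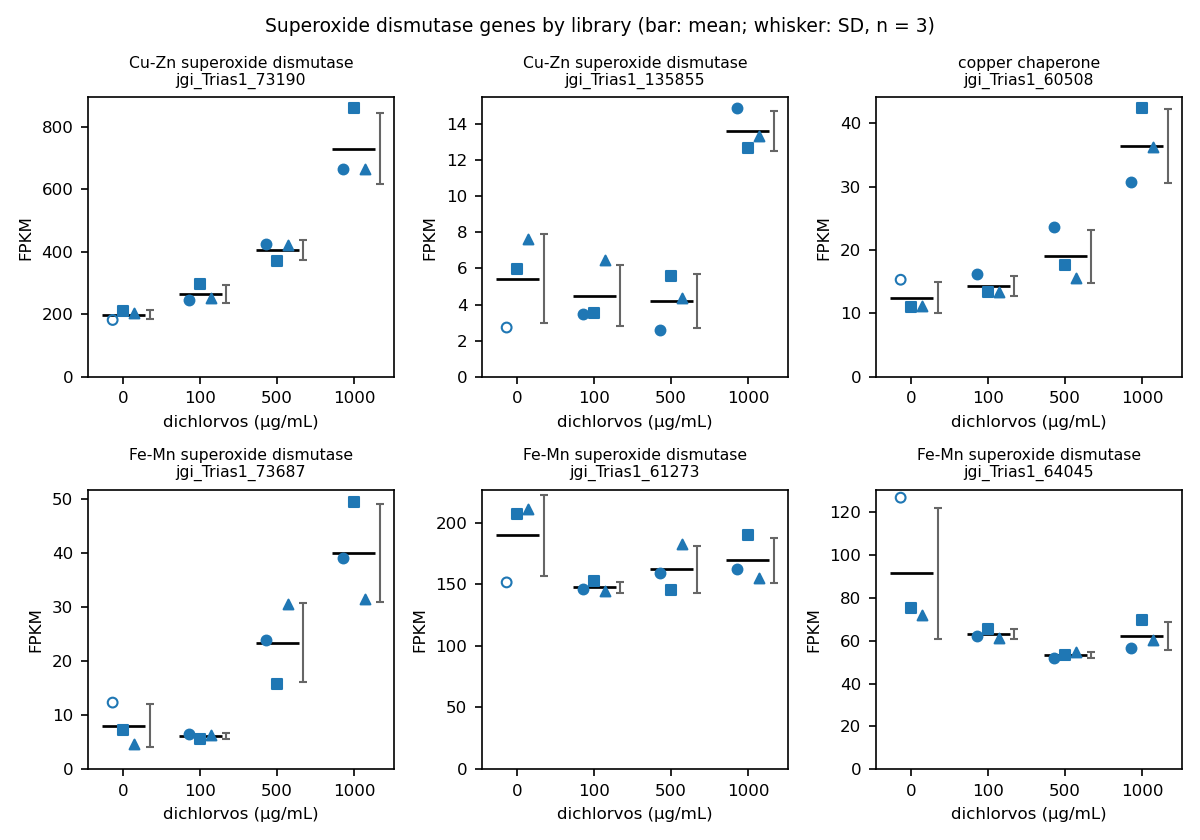
FPKM of the 6 genes of the superoxide dismutase family in each library against dichlorvos dose (μg/mL), with the same symbols as for the thioredoxin genes: bars are means and whiskers SD (n = 3), and the open circle is control replicate 1. The copper-zinc enzyme jgi_Trias1_73190 lay higher at every step of dose, while the libraries of jgi_Trias1_61273 at 1000 μg/mL overlapped the control.

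The glutathione S-transferases, which conjugate glutathione to electrophiles, were the family with the most calls. At 100, 500 and 1000 μg/mL, 2, 8 and 18 of the 19 tested genes were called higher, beside 4.60%, 10.6% and 19.2% of all tested genes. At 1000 μg/mL it was again 18 of 19 without control replicate 1, beside 25.9%. It was 16 after rescaling to TPM, 15 with centred libraries and 14 with centring and control replicate 1 left out, beside 18.4%, 14.3% and 14.7%. All libraries at 1000 μg/mL lay above all controls in 16 of the 19, where this was so for 26.5% of all tested genes, and above all libraries at 100 μg/mL in 18 of the 19, where it was so for 32.3%. These counts rest on the filter. For 6 of the 19 the control mean was under 1 FPKM, so they passed it only through doses at which they were high, and all 6 were called. The other 8 of the 27 fell under the filter, and none of these was called at 1000 μg/mL with no filter. The summed level of the 27 was 254.5 FPKM in the control, 329 at 100 μg/mL, 870.1 at 500 μg/mL and 2728 at 1000 μg/mL. The ratio over the control was 10.7 at the highest dose and 1.29 at the lowest.

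A set of 3 genes held most of that level. jgi_Trias1_55913 had FPKM of 23.6, 40.7 and 36.7 in the control, 63.3, 85.2 and 99.9 at 100 μg/mL, 414, 335 and 466 at 500 μg/mL and 923, 1047 and 855 at 1000 μg/mL. It was called at every dose, with log2 fold changes of 1.28 ± 0.24, 3.57 ± 0.24 and 4.80 ± 0.24 (adjusted p = 0.0053, 4.7e-07 and 1.5e-08). jgi_Trias1_62326 had FPKM of 18.6, 22 and 20.7 in the control, 23.4, 31.2 and 28 at 100 μg/mL, 135, 115 and 134 at 500 μg/mL and 643, 700.0 and 627 at 1000 μg/mL, with overlap between no 2 groups, and log2 fold changes of 2.59 ± 0.17 and 4.94 ± 0.17 at 500 and 1000 μg/mL (adjusted p = 3.8e-07 and 8.8e-10).

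The third, jgi_Trias1_74481, had FPKM of 0.66, 0.82 and 0 in the control, 0.53, 0.55 and 0.54 at 100 μg/mL, 3.54, 6.51 and 9.44 at 500 μg/mL and 416, 521 and 461 at 1000 μg/mL. It was below 1 FPKM in the control and at 100 μg/mL and below 10 FPKM at 500 μg/mL. At the highest dose the log2 fold change was 8.33 ± 0.32 over the control and 8.24 ± 0.32 over 100 μg/mL (adjusted p = 2.5e-09 and 3.7e-09). By size its change at 1000 μg/mL ranked 6 among the 8916 tested genes. Together these 3 took between 13.4% and 27.6% of the summed FPKM of the S-transferases in the control libraries, between 58.1% and 66.4% at 500 μg/mL and between 75.0% and 77.0% at 1000 μg/mL.

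**Figure D4:**
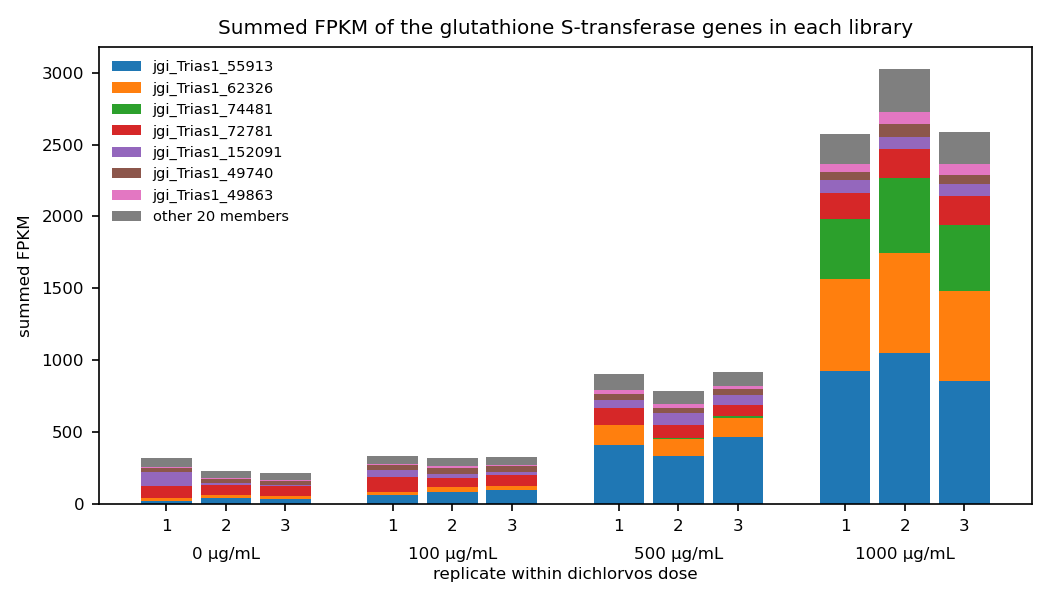
Summed FPKM of the 27 glutathione S-transferase genes in each of the 12 libraries, stacked by gene, grouped by dichlorvos dose with replicates 1 to 3 in each. The 3 genes at the base of the bars, jgi_Trias1_55913, jgi_Trias1_62326 and jgi_Trias1_74481, took between 75.0% and 77.0% of the sum at 1000 μg/mL, and jgi_Trias1_74481 adds visibly to the sum only there.

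In the control the most abundant S-transferase was instead jgi_Trias1_72781 (bit score 96.3), with 79.8, 70.6 and 68.5 FPKM, which rose by 1.39 ± 0.20 on the log2 scale at 1000 μg/mL to 181, 200.4 and 197. Its value was 0.98, not called, with centred libraries and control replicate 1 left out. jgi_Trias1_152091 had 97.3, 15 and 5.98 FPKM in the control, so that replicate 1 was above every library at 1000 μg/mL (86.6, 86.1 and 83.1), and its log2 fold change was 1.96 ± 0.69 (adjusted p = 0.042) with all libraries and 3.03 ± 0.36 (adjusted p = 2.1e-05) without it. Its call with all libraries was lost with no filter, after rescaling to TPM, with the 2 groups fitted alone, and on leaving out control replicate 2 or 3, D1 replicate 2, or any replicate at 500 or 1000 μg/mL. The calls of jgi_Trias1_37668 (bit score 52) and jgi_Trias1_155270 were likewise lost with no filter, with the 2 groups fitted alone and on leaving out some single libraries. That of jgi_Trias1_37668 was lost too after rescaling to TPM. With centred libraries jgi_Trias1_37668, jgi_Trias1_49740 and jgi_Trias1_45475 were not called (0.80, 0.95 and 0.93). Besides jgi_Trias1_55913, jgi_Trias1_49863 was called at each dose, with means of 5.09 ± 2.16, 13.1 ± 2.86, 26.9 ± 5.09 and 70.8 ± 14.2 FPKM (SD, n = 3) in order of dose. Near silence in the control and levels of 16.3 FPKM or more in every library at 1000 μg/mL were also seen in jgi_Trias1_84683, jgi_Trias1_93559 and jgi_Trias1_30288, whose log2 fold changes were 4.71 ± 0.35, 4.59 ± 0.28 and 4.17 ± 0.28. The gene without a call, jgi_Trias1_128452, had FPKM of 3.95, 0.51 and 0.91 in the control, 1.19, 0.91 and 1 at 100 μg/mL, 1.41, 1.01 and 0.93 at 500 μg/mL and 2.32, 2.19 and 2.58 at 1000 μg/mL (log2 fold change 0.47 ± 0.37, adjusted p = 0.35). Without control replicate 1 its value was 0.98 ± 0.25 (adjusted p = 0.0052), close to the fold threshold and not called.

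Among the 12 other glutathione-linked genes, 6 were called higher at 1000 μg/mL, beside 19.2% of all tested genes. This became 3 with centred libraries, beside 14.3%. Centring without control replicate 1 left 2, beside 14.7%. The 12 include the glyoxalase pair, lactoylglutathione lyase and hydroxyacylglutathione hydrolase, which clear methylglyoxal through glutathione, and the formaldehyde pair, S-(hydroxymethyl)glutathione dehydrogenase and S-formylglutathione hydrolase. All 3 lactoylglutathione lyase entries were called. jgi_Trias1_155328 had FPKM of 0, 2.17 and 0 in the control, 5.34, 4.98 and 8.03 at 100 μg/mL, 136, 102 and 116 at 500 μg/mL and 909, 1316 and 1092 at 1000 μg/mL. The groups did not overlap at any step, and the log2 fold changes were 2.25 ± 0.38, 6.33 ± 0.38 and 9.54 ± 0.38 at 100, 500 and 1000 μg/mL (adjusted p = 0.0032, 2.8e-07 and 2.8e-09). Its change at 1000 μg/mL was the largest of the 8916 tested genes with all 12 libraries. Its match to a lactoylglutathione lyase was weak, however, with a bit score of 62.4.

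jgi_Trias1_44730, also a weak match (bit score 55.5), had FPKM of 0, 2.03 and 1.01 in the control, 3.49, 3.62 and 1.5 at 100 μg/mL, 30.8, 23.2 and 38.1 at 500 μg/mL and 139.6, 180.2 and 135 at 1000 μg/mL, which gave log2 fold changes of 4.09 ± 0.39 at 500 μg/mL and 6.37 ± 0.39 at 1000 μg/mL (adjusted p = 1.2e-05 and 9.2e-08). The strong match of the 3, jgi_Trias1_90947 (bit score 622), was also called. It had FPKM of 14.8, 14.8 and 15 in the control, 16.9, 19.99 and 18.6 at 100 μg/mL, 31.2, 26.2 and 26.8 at 500 μg/mL and 37.8, 43.4 and 39.6 at 1000 μg/mL, with libraries of a group close together, and a log2 fold change of 1.38 ± 0.18 at 1000 μg/mL (adjusted p = 8.2e-05). Centring the libraries and leaving out control replicate 1 gave 0.89, not called. The ratio of its mean FPKM at 1000 μg/mL to that in the control was 2.71, and the difference in change between the 3 entries was not tested.

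**Figure D5:**
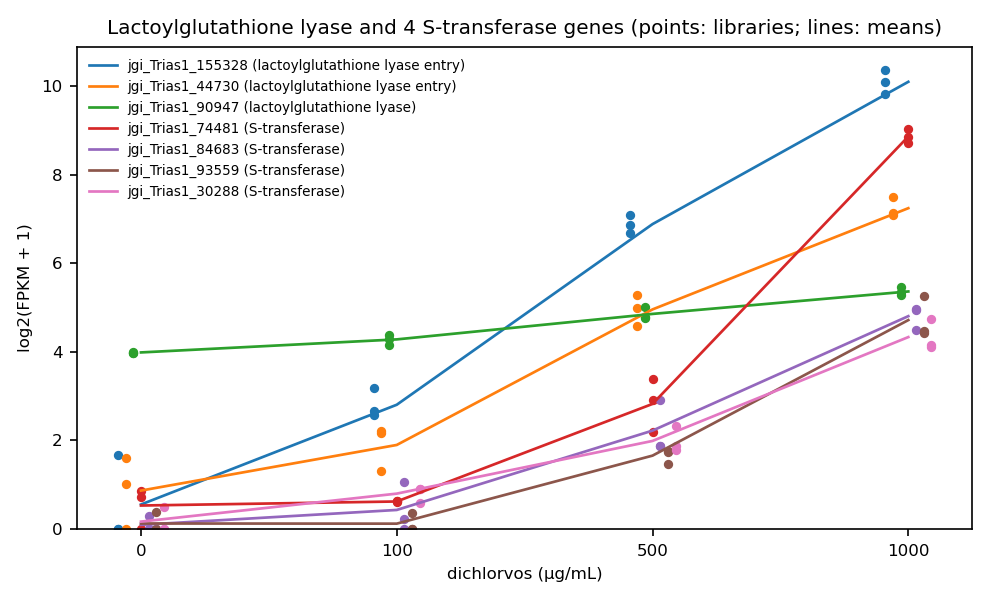
Log2(FPKM + 1) of the 3 lactoylglutathione lyase entries and of 4 S-transferases against dichlorvos dose (μg/mL, doses at equal spacing). Points are libraries and lines join group means. jgi_Trias1_155328 and jgi_Trias1_44730 already lay higher at 500 μg/mL, jgi_Trias1_74481 was under 10 FPKM there, and jgi_Trias1_90947, the strong match, had a log2 fold change of 1.38 at 1000 μg/mL.

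Of the hydroxyacylglutathione hydrolases, 2 of 5 were called higher at 1000 μg/mL, beside 19.2% of all tested genes. The strong match, jgi_Trias1_67495 (bit score 894), had 37.2, 37.6 and 37 FPKM in the control and 39.1, 45.7 and 41.3 at 1000 μg/mL (log2 fold change 0.17 ± 0.17, adjusted p = 0.46). jgi_Trias1_58077 (bit score 73.6) and jgi_Trias1_152492 (bit score 89.7) had log2 fold changes of 1.29 ± 0.35 and 1.22 ± 0.28, the former with 23.9, 65.3 and 83.6 FPKM in the control and a value of 0.76, not called, without control replicate 1. The call of jgi_Trias1_58077 was also lost with centred libraries, with the 2 groups fitted alone and without D10 replicate 2. The call of jgi_Trias1_152492 was lost with centred libraries (0.96), also with control replicate 1 left out (0.90). The lowest value in this family was that of jgi_Trias1_146942, with FPKM of 44.5, 23 and 26.4 in the control, 31.1, 29.1 and 23.6 at 100 μg/mL, 24.8, 23.8 and 31.3 at 500 μg/mL and 23.2, 28.5 and 24.1 at 1000 μg/mL and a log2 fold change of -0.24 ± 0.25 (adjusted p = 0.48).

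In the formaldehyde pair the 2 dehydrogenases differed in their calls. jgi_Trias1_201328 had 152, 138 and 148 FPKM in the control and 169, 127 and 156 at 1000 μg/mL, which overlapped (log2 fold change 0.03 ± 0.20, adjusted p = 0.92). jgi_Trias1_198462 had 22.2, 38.5 and 36.3 and 60.4, 75.2 and 71.9, and was called (1.11 ± 0.22, adjusted p = 0.0017) with 12 libraries but not without control replicate 1 (0.86). Neither S-formylglutathione hydrolase was called at 1000 μg/mL. For jgi_Trias1_42047 the highest group was that of 100 μg/mL, with 24, 22 and 23.8 FPKM against 13.7, 13.8 and 13 in the control and 15.7, 16 and 19.1 at 1000 μg/mL, and its log2 fold change at 100 μg/mL of 0.74 ± 0.19 (adjusted p = 0.039) was under the fold threshold.

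Of the 4 genes that make glutathione, 1 was called higher at 1000 μg/mL with all libraries, near the 19.2% of all tested genes. None was called at 100 or 500 μg/mL, beside 4.60% and 10.6%. Their summed level was 529.8 FPKM in the control, 485 at 100 μg/mL, 381 at 500 μg/mL and 476.5 at 1000 μg/mL. The catalytic subunit of glutamate--cysteine ligase, the rate-limiting step, had 2 entries. jgi_Trias1_128800, the abundant entry (bit score 165), had FPKM of 243, 517 and 566 in the control, 367, 337 and 493 at 100 μg/mL, 278, 274 and 359 at 500 μg/mL and 399.9, 446 and 297 at 1000 μg/mL. Control replicate 1 was below every other library, and the log2 fold change at 1000 μg/mL was -0.14 ± 0.30 (adjusted p = 0.75) with it and -0.53 ± 0.21 (adjusted p = 0.053) without it. With libraries centred as well it was -1.01 (adjusted p = 0.004), called lower. The strong match, jgi_Trias1_230294 (bit score 1233), was far lower in level and had FPKM of 37.8, 7.24 and 6.24 in the control, 10.7, 10.5 and 9.57 at 100 μg/mL, 12.6, 10.9 and 9.46 at 500 μg/mL and 16.6, 19.9 and 14.9 at 1000 μg/mL. Here control replicate 1 was above all other libraries, so that the log2 fold change of 0.45 ± 0.49 (adjusted p = 0.51) became 1.22 ± 0.20 (adjusted p = 2.2e-04), called, without it.

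The regulatory subunit jgi_Trias1_126923 had 59, 69.6 and 55.7 FPKM in the control and 53.5, 70.8 and 51.1 at 1000 μg/mL, which overlapped (log2 fold change -0.08 ± 0.23, adjusted p = 0.83). Glutathione synthase, jgi_Trias1_126142, which adds glycine in the last step, had FPKM of 12.3, 7.13 and 7.84 in the control, 11.5, 9.46 and 7.79 at 100 μg/mL, 17.6, 10.8 and 14.6 at 500 μg/mL and 16.6, 24.1 and 19.4 at 1000 μg/mL. It rose by 1.08 ± 0.28 on the log2 scale at 1000 μg/mL (adjusted p = 0.0087), close to the fold threshold, and the call was lost with centred libraries and on leaving out any of control replicate 2, control replicate 3 and D10 replicate 2.

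Gamma-glutamyltranspeptidase starts the breakdown of glutathione, and 3 of the 11 tested entries were called higher at 1000 μg/mL, beside 19.2% of all genes. Without control replicate 1 it was 1 of 11, beside 25.9%. The most abundant, jgi_Trias1_73764, is a weak match (bit score 80.1) with FPKM of 966, 1836 and 1903 in the control, 1399, 1674 and 1797 at 100 μg/mL, 1393, 1519 and 1583 at 500 μg/mL and 1356, 1479.9 and 1191 at 1000 μg/mL, which was the larger part of the summed level of the entries (1811 FPKM in the control and 1721 at 1000 μg/mL). Its log2 fold change was -0.17 ± 0.26 (adjusted p = 0.65) with all libraries and -0.48 ± 0.17 (adjusted p = 0.0255), under the fold threshold, without control replicate 1. jgi_Trias1_147172 (bit score 63.2) had FPKM of 3.44, 1.52 and 1.91 in the control, 6.11, 7.98 and 4.18 at 100 μg/mL, 27.3, 21.6 and 9.04 at 500 μg/mL and 12.6, 25.2 and 14.9 at 1000 μg/mL and changed most (log2 fold change 2.48 ± 0.41, adjusted p = 4.8e-04), with its levels at 500 and 1000 μg/mL overlapping. At 100 μg/mL it was called (1.35) in the fit without control replicate 1 and not with all 12 libraries (1.11). The strong matches among the tested entries, jgi_Trias1_176394 and jgi_Trias1_58570 (bit scores 993 and 1082), had log2 fold changes of 1.26 ± 0.36 and 1.10 ± 0.25, called with 12 libraries, and 0.74 and 0.96, not called, without control replicate 1. The first of these had 34.4, 107 and 102 FPKM in the control, with replicate 1 the lowest of all libraries. Both calls were also lost with centred libraries and without D10 replicate 2. That of jgi_Trias1_176394 was lost too with the 2 groups fitted alone and without D10 replicate 1.

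The arginine genes encode N-acetyl-gamma-glutamyl-phosphate reductase and do not act on glutathione. Of the 2 tested, jgi_Trias1_145973 had FPKM of 46.1, 22.2 and 28 in the control, 36.1, 34.7 and 32.6 at 100 μg/mL, 23.8, 26.2 and 24.7 at 500 μg/mL and 21.6, 27.5 and 25.6 at 1000 μg/mL. The other, jgi_Trias1_57619, had FPKM of 25.8, 14.6 and 16 in the control, 17.9, 17.1 and 18 at 100 μg/mL, 24.3, 22.1 and 16.5 at 500 μg/mL and 23.5, 38 and 28.6 at 1000 μg/mL. At 1000 μg/mL both overlapped the control, with log2 fold changes of -0.29 ± 0.24 and 0.67 ± 0.26 (adjusted p = 0.38 and 0.064). Without control replicate 1 the value of jgi_Trias1_57619 was 0.905 ± 0.22 (adjusted p = 0.0039), under the fold threshold. The third, jgi_Trias1_71971, was under the filter on low values, with at most 0.3 FPKM in any library.

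Genes that work beside these enzymes were taken from lists made from words of the same annotation. The list for NADPH, the electron source of both reductases, held 8 genes and not NADPH sources alone. Of these, jgi_Trias1_436740 and jgi_Trias1_130313 are annotated as NAD-dependent isocitrate dehydrogenase and jgi_Trias1_148453 as a malate dehydrogenase whose entry does not name NADP. In this list 0 of 8 genes passed as higher and 1 as lower at the highest dose, beside 19.2% and 7.81% of all genes, and without control replicate 1 these counts were 1 and 1. The gene called lower, jgi_Trias1_182338, annotated as 6-phosphogluconate dehydrogenase, had FPKM of 30.3, 7.16 and 8.46 in the control, 5.09, 3.07 and 2.01 at 100 μg/mL, 1.92, 2.71 and 3 at 500 μg/mL and 0.9, 0.7 and 1.16 at 1000 μg/mL and was called lower at each dose, with a log2 fold change of -2.81 ± 0.45 at 1000 μg/mL (adjusted p = 3.7e-04). Glucose-6-phosphate dehydrogenase, jgi_Trias1_23027, which makes NADPH, had FPKM of 92, 70.5 and 77 in the control, 75.5, 93.2 and 99.4 at 100 μg/mL, 121, 101 and 112 at 500 μg/mL and 125, 158 and 128 at 1000 μg/mL. All its libraries at 1000 μg/mL lay above the control, with a log2 fold change of 0.78 ± 0.18 (adjusted p = 0.005), under the fold threshold. The other 6-phosphogluconate dehydrogenase entry, jgi_Trias1_33605, had 0.74 with all libraries and 1.17, called, without control replicate 1. The NADP-dependent isocitrate dehydrogenase jgi_Trias1_139899 was called higher at 100 μg/mL (1.24, adjusted p = 0.005) and not at 1000 μg/mL (0.76). Without control replicate 1 it was called at 500 μg/mL as well (1.10, adjusted p = 9.9e-04) and not at 1000 μg/mL (0.956). The most abundant of the list, jgi_Trias1_436740, is annotated as the NAD-dependent isocitrate dehydrogenase, which makes NADH, and had 786, 691 and 648 FPKM in the control and 683, 585 and 558 at 1000 μg/mL (log2 fold change -0.22 ± 0.16, adjusted p = 0.32). Among 8 tested catalases, which remove hydrogen peroxide without thiols, 3 passed as higher and 3 as lower at the highest dose, beside 19.2% and 7.81% of all genes. The largest change was in jgi_Trias1_52822, with FPKM of 52.4, 35.7 and 36.3 in the control, 25.5, 23.9 and 17.1 at 100 μg/mL, 10.5, 9.16 and 9.6 at 500 μg/mL and 3.21, 2.53 and 1.48 at 1000 μg/mL and no overlap between groups (log2 fold change -3.65 ± 0.27, adjusted p = 5.2e-07). The most abundant, the catalase-peroxidase jgi_Trias1_140270, had 103, 79.1 and 78.8 in the control and 164, 235 and 175 at 1000 μg/mL (log2 fold change 1.12 ± 0.19, adjusted p = 6.5e-04), a call lost with centred libraries and without D10 replicate 2.

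The list of thioredoxin clients held only phosphoadenosine phosphosulfate reductase and subunits of ribonucleotide reductase. In it 3 of 3 genes were called higher at 1000 μg/mL, beside 19.2% of all genes. Peroxiredoxins and methionine sulfoxide reductases, which also draw on thioredoxin, were counted apart, with 1 of 4 and 1 of 2 called higher. Phosphoadenosine phosphosulfate reductase, jgi_Trias1_138659, which draws on thioredoxin in sulfate assimilation, had FPKM of 79.6, 25.3 and 17 in the control, 14.6, 11.9 and 6.32 at 100 μg/mL, 35, 41.1 and 43 at 500 μg/mL and 94.5, 93.9 and 76.2 at 1000 μg/mL, with control replicate 1 within the range of the highest dose (log2 fold change 1.40 ± 0.45, adjusted p = 0.027). A subunit of ribonucleotide reductase, jgi_Trias1_148646, had 98.1, 31.8 and 42.3 FPKM in the control and 103, 128 and 124 at 1000 μg/mL (log2 fold change 1.19 ± 0.34, adjusted p = 0.015). Both calls were lost with the 2 groups fitted alone and on leaving out control replicate 2, control replicate 3 or D10 replicate 2. The former was also lost without D10 replicate 1 and the latter with centred libraries. Of the methionine sulfoxide reductases, which repair oxidised methionine, 1 of 2 was called higher at 1000 μg/mL, beside the same 19.2%. jgi_Trias1_143678, for the R form, had FPKM of 8.59, 11.1 and 8.37 in the control, 19.6, 23.8 and 16.6 at 100 μg/mL, 60.3, 80.3 and 51.6 at 500 μg/mL and 125, 138 and 103 at 1000 μg/mL, with no overlap between groups, and was called at each dose (1.02 ± 0.23, 2.64 ± 0.23 and 3.57 ± 0.23 on the log2 scale, adjusted p = 0.017, 4.5e-06 and 1.3e-07). At 100 μg/mL the value without control replicate 1 was 0.97, not called. jgi_Trias1_72271, for the S form, had 129, 66.1 and 54.9 FPKM in the control and 109.6, 86.6 and 69.8 at 1000 μg/mL (log2 fold change 0.17 ± 0.29, adjusted p = 0.69). Without control replicate 1 its value was 0.53 ± 0.20 (adjusted p = 0.043), under the fold threshold.

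For protein disulfide folding in the endoplasmic reticulum, 4 of 6 genes were called higher at 1000 μg/mL, beside 19.2% of all genes. The protein disulfide-isomerase jgi_Trias1_51030 had FPKM of 13.5, 6.41 and 6.49 in the control, 8.96, 13.1 and 14.5 at 100 μg/mL, 23.9, 20.1 and 23.2 at 500 μg/mL and 93.8, 112 and 75.3 at 1000 μg/mL (log2 fold change 3.33 ± 0.29, adjusted p = 2.5e-06), and the most abundant isomerase, jgi_Trias1_176963, had 585, 290.3 and 288 in the control and 805, 941 and 815 at 1000 μg/mL (log2 fold change 1.22 ± 0.26, adjusted p = 0.0028), a call lost with centred libraries. Another list was made for cysteine, the amino acid that carries the thiol of glutathione, and not all its genes form cysteine. Its entries for cystathionine gamma-synthase (such as jgi_Trias1_141310) and cystathionine beta-lyase (such as jgi_Trias1_53308) belong to the route from cysteine to homocysteine. Of 12 tested genes, 4 passed as higher and 0 as lower at the highest dose, beside 19.2% and 7.81% of all genes. Without control replicate 1 these counts were 4 and 1 (jgi_Trias1_141310, -1.59), beside 25.9% and 7.68%. Cystathionine gamma-lyase jgi_Trias1_61647, which forms cysteine, was called higher at 1000 μg/mL (log2 fold change 1.54 ± 0.28, adjusted p = 8.25e-04). A cysteine synthase, jgi_Trias1_57934, had FPKM of 2.05, 2.62 and 2.79 in the control, 8.22, 12.4 and 11.1 at 100 μg/mL, 14.9, 12.6 and 7.22 at 500 μg/mL and 10.4, 11.9 and 11.8 at 1000 μg/mL, a step between the control and 100 μg/mL with overlapping levels among the doses (log2 fold changes 1.72 ± 0.28, 1.80 ± 0.28 and 1.83 ± 0.28, adjusted p = 0.0024, 7.2e-04 and 2.7e-04). The most abundant, cystathionine beta-synthase jgi_Trias1_128480, had 711, 745 and 781 FPKM in the control and 391, 367 and 431 at 1000 μg/mL (log2 fold change -0.91 ± 0.16, adjusted p = 7.9e-04), under the fold threshold. It was called lower with centred libraries (-1.17), and with control replicate 1 also left out (-1.43). Centring also gave a lower call for jgi_Trias1_140593 (-1.18), and jgi_Trias1_53308 lost its higher call (0.95). With control replicate 1 left out as well, jgi_Trias1_141310 was called lower (-2.07) and jgi_Trias1_459843 lost its higher call (0.95). No gene carried a sulfiredoxin entry at the head of its annotation.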

How the data were processed

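RNA of 12 libraries of T. asperellum TJ01 was measured by RNA-seq. The authors compared reads with the Trias1 reference and deposited FPKM values, scaled to gene length and library size. The submitters' processing notes name BWA, Bowtie and RSEM, with roles and versions not given in the sources used here. The deposited annotation supplied the KEGG descriptions and bit scores. The study says that each experiment was repeated 3 times. It does not say whether the libraries of a group came from separate cultures, so p-values measure the spread between libraries. Every column of values belonged to a library of the series (0 left over).

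FPKM hold no read counts, so depth is known only in relative terms. From the smallest values above 0, the depth of control replicate 1 was 0.824 of that of control replicate 2, and the others lay between 0.980 and 1.02. The sum of FPKM was between 895521 and 958261. The 3 libraries per group limit the precision, and an exact permutation test of 3 against 3 cannot give a two-sided p under 0.1.

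limma 3.58.1 in R 4.3.3 was fitted to log2(FPKM + 1) for 8916 genes, those averaging at least 1 FPKM, with an intensity trend and the 4 groups in 1 fit. P-values were adjusted over all genes tested (Benjamini-Hochberg). A fold change on this scale understates the change of low genes. The NOISeq thresholds that the study states are a probability over 0.8 and a log2 ratio beyond 1 in either direction. As an alternative they were applied with a rewritten calculation in Python 3.11.15, to all 12 libraries and without control replicate 1. The limma fit was tested on simulated data with known changes. The rewritten calculation was not, and was only checked against direct counting of the same rule on these data. Families and partner lists were made from words of the KEGG description, with homoisocitrate dehydrogenase left out of the NADPH list. The members, lists and tests were chosen with earlier results of these data known.

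The rule for named genes was the 3 genes jgi_Trias1_74481, jgi_Trias1_73687 and jgi_Trias1_73190, in each family the gene with the highest mean FPKM and those with the highest and lowest log2 fold change at 1000 μg/mL, and families of at most 3 in full. In partner lists the most abundant gene and the one with the largest absolute change were named. Other genes named in the text were chosen after their values were seen. The alternatives were a pseudocount of 0.1, no filter or a mean of at least 5 FPKM, TPM in place of FPKM, libraries centred on their medians with and without control replicate 1, the replicate number as a block, the 2 groups compared alone, no intensity trend, no fold threshold, the NOISeq thresholds, and leaving out each library in turn. None of the identifiers matched the RefSeq list at hand, so no coordinates or sequences are given.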

Additional observations from a re-analysis of the deposited data

How the results depend on the processing

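No call of a named member or count of members called changed direction under any alternative run, apart from the genes called lower that are given here. The partner genes were not part of this check. At 1000 μg/mL jgi_Trias1_148453 of the NADPH list was called lower with centred libraries (-1.08) and without control replicate 3 (-1.14). The protein disulfide-isomerase jgi_Trias1_184591 was called lower with centred libraries (-1.18). Lower calls in the cysteine list are given above. At 100 μg/mL, the 4 calls became 0 when the 2 groups were fitted alone, 0 by the NOISeq thresholds with all 12 libraries, 1 by these without control replicate 1, and 2 to 6 when 1 library was left out in turn, the 2 without control replicate 3 and without replicate 1 or 2 at 100 μg/mL. At 500 μg/mL, the 20 became 7 by the thresholds and 11 by the thresholds without control replicate 1, and 18 to 22 with 1 library left out. Lower calls there were 2 with centred libraries and control replicate 1 left out, and 1 with no fold threshold. At 1000 μg/mL, the 43 became 15 by the thresholds, 24 by the thresholds without control replicate 1, 28 with centred libraries and control replicate 1 left out, and 35 to 43 with 1 library left out, and lower calls were 2 with centring and control replicate 1 left out and 0 to 1 with 1 library left out. Between 100 and 1000 μg/mL, the 31 became 20 by the thresholds with or without control replicate 1, and 25 to 33 with 1 library left out. Lower calls there were 1 with the 2 groups alone, 1 with no intensity trend, 1 with centring and control replicate 1 left out, and 0 to 1 with 1 library left out. The cause of these differences was not tested.

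The replicate number as a block gave the same counts (4, 20, 43 and 31). The numbers were not taken to pair the libraries, since nothing in the labels ties them and the deviations of same-numbered libraries correlated between -0.319 and 0.495 (different numbers between -0.469 and 0.37), so not every pair was above 0.1. Of 12 libraries 7 correlated best with a library of their own number. No chance level was worked out for this count, and whether some libraries share more than a number was not tested. Of 2388 values of single named members under the alternatives, 2314 kept their side of the threshold, 56 lost the call and 18 gained it. FPKM without counts give no counting error, so differences of genes near 0 FPKM cannot be graded by depth.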
